A study of Mus musculus with 18 samples.

Results

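The Wnt ligands, their receptors and their antagonists were followed through the thick ascending limb (TAL) of the loop of Henle of the mouse kidney. Members were taken by gene name. They were the genes named Wnt, Fzd, Sfrp, Dkk or Rspo with a number, together with *Lrp5*, *Lrp6*, *Lgr4*, *Lgr5*, *Lgr6*, *Axin1*, *Axin2*, *Lef1*, *Tcf7*, *Tcf7l1* and *Tcf7l2*. This gave 52 of the 55401 genes in the tables: 19 Wnt ligands, 10 Frizzled receptors, 2 Lrp co-receptors, 4 R-spondins, 3 R-spondin receptors, 8 secreted antagonists, 2 Axin scaffolds and 4 TCF/LEF factors.

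Wnt proteins are lipid-modified ligands that bind a Frizzled receptor together with *Lrp5* or *Lrp6*, which stops the destruction complex built on Axin from marking beta-catenin for breakdown, so that beta-catenin can enter the nucleus and act with TCF/LEF factors. Secreted frizzled-related proteins (Sfrp) and Dickkopf proteins (Dkk) restrain this at the cell surface, and R-spondins acting through Lgr receptors keep more Frizzled there. In the kidney the pathway is best known for its part in nephron formation and in growth of the medulla, where *Wnt9b* and *Wnt7b* are products of the ureteric tree and collecting duct, and for its return after injury.

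RNA was sequenced from 18 pools of 150 to 200 tubules dissected by hand, each from a single mouse, so that replicates are animals. The medullary limb (MTAL) was dissected from the outer medulla, in its inner stripe, and the cortical limb (CTAL) from the cortex. The conditional knock-out (cKO) mice carried *Cldn10* fl/fl and Ksp-Cre, in which the Ksp-cadherin promoter drives Cre in the distal nephron. Their WT littermates also carried *Cldn10* fl/fl, without Cre, so the floxed alleles are common to all groups and Cre is present in the cKO groups only. All mice were stated to be males of 4 to 10 months on a C57BL/6 background, labelled C57BL/6J. The groups were 5 pools of WT CTAL, 5 of cKO CTAL, 5 of WT MTAL and 3 of cKO MTAL, and the study states that calcification of the cKO medulla made cKO MTAL difficult to dissect.

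Total estimated counts ranged from 10824299 to 62339939 per pool. *Cldn10*, the targeted gene, which encodes a tight junction protein, was at 384 to 579 CPM (counts scaled to a common library size) in WT CTAL, 156 to 185 in cKO CTAL, 653 to 810 in WT MTAL and 151 to 295 in cKO MTAL, so the deletion was incomplete, and the study had chosen its cKO pools partly by this level. Pool WT CTAL 1 has a WT pool name but a knock-out genotype label, and it was used as WT. Its *Cldn10* was at 446 CPM, within the range of the other WT CTAL pools and above every cKO CTAL pool. Although all mice were stated to be male and the Y-linked *Ddx3y* was present in every pool at 23.6 to 38.7 CPM, 7 pools also held *Xist* at 6.50 to 8.77 CPM: 2 of WT CTAL, 1 of cKO CTAL, 4 of WT MTAL and 0 of cKO MTAL, against at most 0.738 CPM elsewhere. The 8 TAL markers summed to 51815 to 99577 CPM in all pools. Pool cKO MTAL 20 stood apart by *Aqp2*, the water channel of the collecting duct, at 551 CPM, and cKO CTAL 2 by *Slc12a3*, the transporter of the distal convoluted tubule, at 60.2 CPM. WT CTAL 3 stood apart by the thin limb marker *Slc14a2*, at 46.9 CPM against 3.04 to 5.63 in the other WT CTAL pools. It also had the lowest *Sfrp1* and the highest *Tcf7l1* of WT CTAL. In WT MTAL 11 *Aqp2* was at 147 CPM, against 19.5 to 42.8 in the other WT MTAL pools. Pool cKO MTAL 18 stood apart by the injury markers *Lcn2*, at 282 CPM against 22.1 and 45.9 in the other cKO MTAL pools, and *Spp1*, at 7835 CPM against 2053 and 1959. Because these are bulk samples, fewer cells of a type and less RNA per cell cannot be told apart.

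Members were tested in a comparison where they reached 3 CPM in at least 5 pools, or in 3 pools where cKO MTAL entered. Of the 52 members 20 were tested in at least 1 comparison and 32 in none. The TPM values deposited by the authors, a measure of level corrected for transcript length, were used to set genes side by side. The Frizzled receptors summed to 137 ± 8.49 TPM (SD, n = 5) in WT CTAL and 127 ± 13.2 TPM (n = 5) in WT MTAL, while the ligands summed to 35.8 ± 4.56 and 51.6 ± 13.98 TPM. By group mean the most abundant members per length were *Sfrp1* in CTAL of both genotypes and *Fzd4* and *Lgr4* in WT MTAL and cKO MTAL, although *Fzd4* was above *Sfrp1* in WT CTAL 3, 8 and 10. The R-spondins summed to at most 0.208 TPM in any pool.

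**Figure D1:**
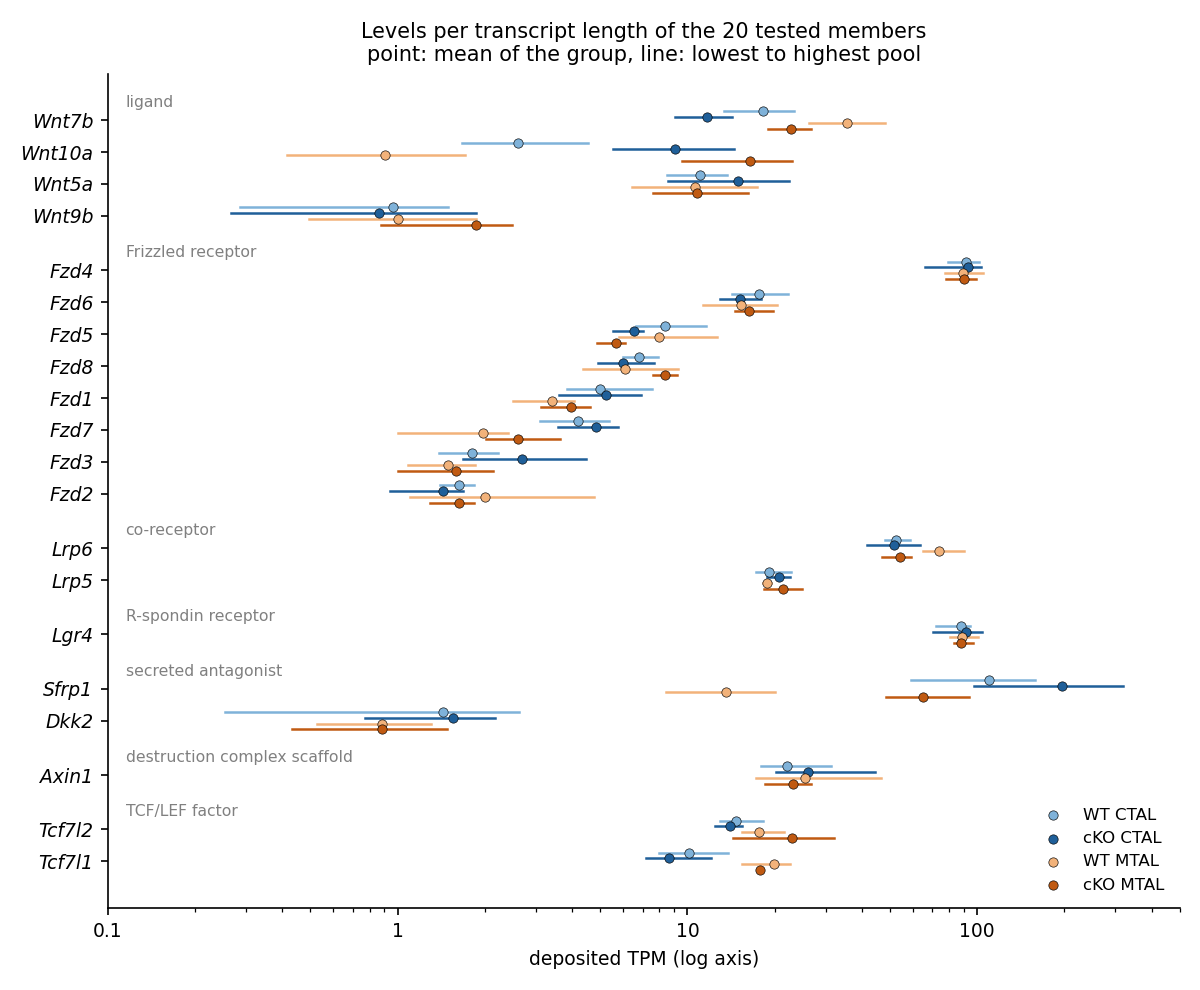
Levels of the 20 tested members as deposited TPM (log axis), grouped by role; each point is the mean of a group and each line runs from its lowest to its highest pool. *Fzd4* and *Lgr4* are high with close groups and *Lrp6* is highest in WT MTAL, whereas *Sfrp1* runs from a mean of 13.6 TPM in WT MTAL to 197 TPM in cKO CTAL and *Wnt10a* from 0.906 TPM in WT MTAL to 16.4 TPM in cKO MTAL.

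In cKO MTAL against WT MTAL, 4 of 19 tested members changed at an adjusted p under 0.05 (edgeR's quasi-likelihood test with Benjamini-Hochberg adjustment over all genes tested). The ligand *Wnt10a* and the antagonist *Sfrp1* rose, and the ligand *Wnt7b* and the co-receptor *Lrp6* fell. Across all 12060 genes tested there, 4.44% were called higher and 2.57% lower, against 10.5% of the members in each direction. The median log2 fold change was -0.11 over the members and 0.00 over all genes.

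In cKO CTAL against WT CTAL, 2 of 20 tested members were called, *Wnt10a* higher and *Wnt7b* lower, beside 0.658% of all 11702 genes called higher and 0.564% called lower. Both members had the direction they had in MTAL. The medians were -0.10 over the members and 0.00 over all genes.

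In WT MTAL against WT CTAL, 6 of 19 tested members were called. *Lrp6*, *Wnt7b* and the TCF factor *Tcf7l1* were higher in MTAL, beside 2.76% of all 11650 genes, and *Sfrp1*, *Wnt10a* and the receptor *Fzd7* were lower, beside 4.1%. In cKO MTAL against cKO CTAL, 3 of 20 were called: *Tcf7l1* and *Wnt7b* were higher in MTAL, beside 1.12% of 12044 genes, and *Sfrp1* was lower, beside 0.631%. The effect of genotype differed between the segments for 1 of 20 members, *Wnt10a*, beside 0.286% of 12586 genes (interaction term). These comparisons share pools, so their results are not independent of each other. In all, 6 members were called somewhere and 14 were tested without a call. The share of all genes called somewhere was not counted, so this total has nothing to be set beside.

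**Figure D2:**
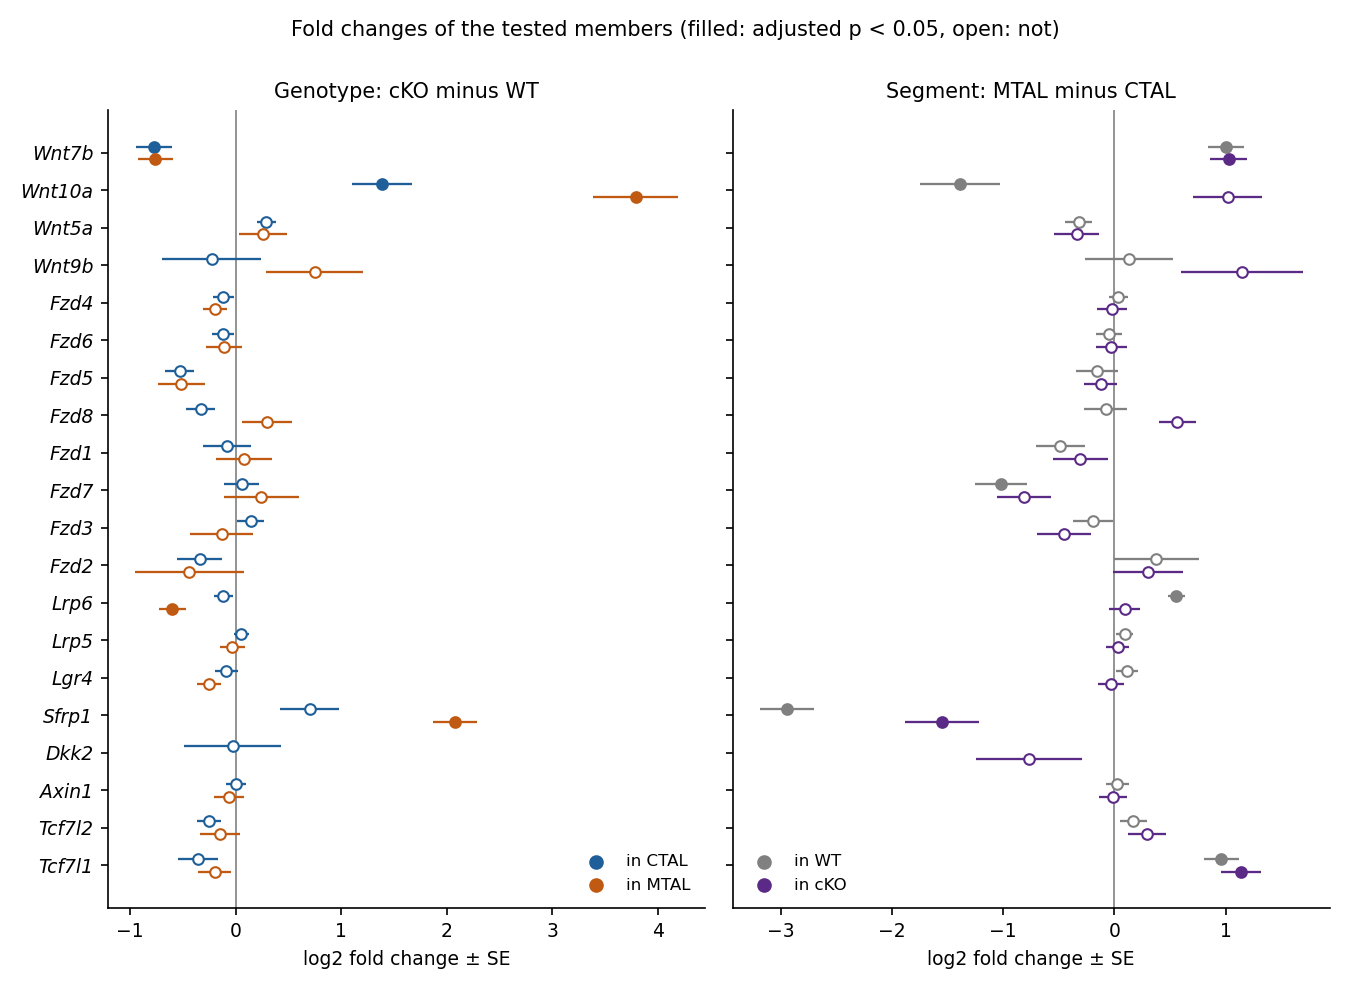
Log2 fold changes with SE of the tested members, by genotype on the left (cKO minus WT, in CTAL and in MTAL) and by segment on the right (MTAL minus CTAL, in WT and in cKO); filled points have an adjusted p under 0.05. *Wnt10a* and *Sfrp1* lie farthest to the right for genotype in MTAL, at 3.79 and 2.08, and *Sfrp1* farthest to the left for segment in WT, at -2.95.

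Among the ligands, *Wnt10a*, a ligand known for its part in hair, tooth and skin development, had the largest fold change of the members tested after the filter. Pools are listed throughout by number, that is 1, 3, 8, 10 and 22 for WT CTAL, 2, 4, 7, 9 and 21 for cKO CTAL, 11, 13, 15, 17 and 19 for WT MTAL and 16, 18 and 20 for cKO MTAL. *Wnt10a* was at 0.866, 3.14, 1.42, 2.17 and 1.05 CPM in WT MTAL and at 15.9, 35.3 and 22.4 CPM in cKO MTAL. All 3 cKO pools lay above every WT pool. It rose by 3.79 ± 0.40 (log2, SE), which is 13.8-fold, with an adjusted p of 3.88e-05. In this comparison *Wnt10a* passed the filter through the cKO MTAL pools, since only WT MTAL 13 also reached 3 CPM.

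In CTAL, *Wnt10a* was at 3.97, 3.39, 7.76, 3.44 and 4.57 CPM in WT and at 19.6, 9.50, 12.7, 7.43 and 12.7 CPM in cKO. The groups met at a single point, WT CTAL 8 lying just above cKO CTAL 9. The rise was 1.39 ± 0.28 (adjusted p = 0.0271). This call was lost without cKO CTAL 2, 7 or 21 or WT CTAL 3, 10 or 22, with adjusted p between 0.0609 and 0.0849, and when WT CTAL 1 was counted as cKO (1.16, adjusted p = 0.186). Between the WT segments *Wnt10a* was lower in MTAL, with a log2 fold change of -1.39 ± 0.36 (adjusted p = 0.0267), where it passed the filter through WT CTAL. That call was lost without WT CTAL 8 (-1.11, adjusted p = 0.0896) or without WT MTAL 11, 15 or 19, where the adjusted p lay between 0.0524 and 0.0660.

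The genotype effect on *Wnt10a* was larger in MTAL than in CTAL by 2.37 ± 0.50 (log2, adjusted p = 0.0450, interaction term). The call sat close to the threshold: leaving out a pool took the adjusted p above it for 12 of the 18 pools, with the log2 difference between 2.02 and 2.70. In cKO mice the order of the segments was the other way round from WT, with means of 24.5 ± 9.91 CPM (SD, n = 3) in MTAL and 12.4 ± 4.63 CPM (n = 5) in CTAL, but that difference was not called (1.02 ± 0.31, adjusted p = 0.109). *Wnt6*, which lies 6.19 kb away on the same strand, stayed at or under 0.231 CPM in every pool. *Wnt10a* spans chr1:74791516-74804179 on the plus strand of mm10 and overlaps no other annotated gene.

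*Wnt7b*, a ligand that the collecting duct makes during growth of the medulla, was the most abundant ligand per length in WT CTAL and in both MTAL groups. It was at 110, 120, 85.7, 72.5 and 91.2 CPM in WT MTAL and at 57.7, 63.5 and 47.4 CPM in cKO MTAL. Every cKO MTAL pool lay below every WT MTAL pool, and *Wnt7b* fell by 1.70-fold (-0.76 ± 0.17 log2, adjusted p = 0.0121). Without cKO MTAL 20, its lowest cKO pool, the value was -0.65 with an adjusted p of 0.0634. With limma on log2(TPM + 1) it was -0.60 with an adjusted p of 0.153.

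In CTAL the values of *Wnt7b* were 39.9, 45.5, 35.0, 57.2 and 61.9 CPM in WT and 35.8, 33.3, 24.5, 24.4 and 23.0 CPM in cKO. The lowest WT pool and the highest cKO pool overlapped, and 3 of the 5 cKO pools lay between 23.0 and 24.5 CPM. The log2 fold change was -0.77 ± 0.17 (adjusted p = 0.0369), close to that in MTAL, and the interaction was -0.01 ± 0.26 (adjusted p = 0.994). The CTAL call was lost without any of cKO CTAL 7, 9 or 21 or WT CTAL 3, 10 or 22, with adjusted p between 0.0745 and 0.110, and with WT CTAL 1 counted as cKO (-0.74, adjusted p = 0.0637). It was also lost with limma on log2(TPM + 1), at -0.59 with an adjusted p of 0.153.

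Between the segments *Wnt7b* was higher in MTAL by 1.001 ± 0.16 in WT (adjusted p = 7.90e-04) and by 1.03 ± 0.17 in cKO (adjusted p = 0.00959). In both genotypes the segments did not overlap. The cKO MTAL pools, although lower than WT MTAL, still lay within or above the range of WT CTAL. *Wnt7b* (chr15:85535437-85582473, minus strand) is overlapped on the opposite strand by *AU022754*, and whether the counting used strand is not given in the sources used here. The level of *Wnt7b* is therefore uncertain to that extent.

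*Wnt5a*, which mostly acts without beta-catenin, was at 27.4 to 34.4 CPM in WT CTAL and 35.8 to 43.8 CPM in cKO CTAL. These ranges did not overlap, but the difference of 0.29 ± 0.09 was not called (adjusted p = 0.186). In MTAL the ranges were 20.5 to 29.2 and 21.5 to 44.4 CPM, with cKO MTAL 18 alone above WT, and the difference was 0.26 ± 0.22 (adjusted p = 0.531). *Wnt9b*, the inducer of nephron formation from the ureteric tree, was low throughout, between 0.952 and 8.64 CPM, and was called in no comparison.

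The make-up of the ligand transcripts differed between the groups. *Wnt7b* took 50.4% ± 6.92 of the summed ligand TPM in WT CTAL (SD, n = 5), 30.9% ± 9.01 in cKO CTAL (n = 5), 69.0% ± 2.93 in WT MTAL (n = 5) and 41.3% ± 7.46 in cKO MTAL (n = 3). *Wnt10a* took 7.49% ± 3.77, 21.97% ± 5.30, 1.78% ± 0.962 and 28.5% ± 6.24 in the same order. *Wnt5a* took 30.8% ± 2.55, 36.9% ± 7.11, 20.2% ± 3.44 and 18.8% ± 4.17. In WT MTAL the share of *Wnt7b* was between 66.2% and 72.6% in all pools, and in cKO MTAL it was at most 49.8%. The summed ligand level moved little beside this: 35.8 ± 4.56, 39.6 ± 10.3, 51.6 ± 13.98 and 56.05 ± 13.5 TPM in the same order of groups, with overlapping ranges between the genotypes of each segment. These shares were computed from TPM and were not tested.

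**Figure D3:**
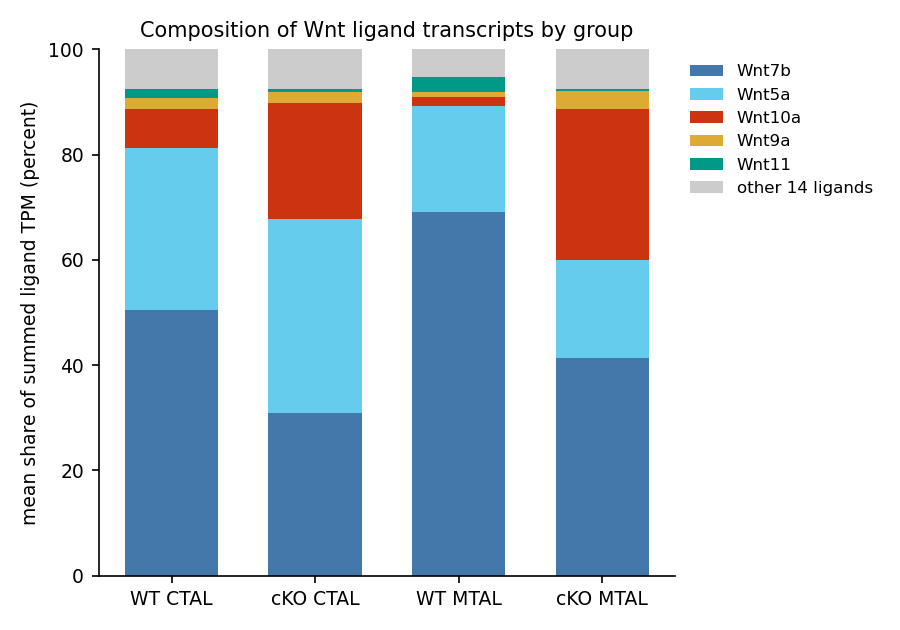
Mean share of the summed TPM of the 19 Wnt ligands taken by single ligands in each group (percent, 5 pools a group and 3 for cKO MTAL). The part of *Wnt10a* is 1.78% in WT MTAL and 28.5% in cKO MTAL, and that of *Wnt7b* is 69.0% and 41.3%.

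The other 15 ligands passed the filter in no comparison. Of these *Wnt1*, *Wnt2*, *Wnt3*, *Wnt3a*, *Wnt6*, *Wnt7a*, *Wnt8a*, *Wnt10b* and *Wnt16* stayed below 0.5 CPM in every pool, down to a single count over all pools for *Wnt8a*, and 3 counts correspond to 0.0454 to 0.282 CPM at these depths. *Wnt2b* reached 1.84 CPM. *Wnt4*, *Wnt5b*, *Wnt8b*, *Wnt9a* and *Wnt11* each reached 3 CPM in at least 1 pool: *Wnt9a* was at 11.4 CPM in cKO MTAL 20, the pool high in *Aqp2*, and at most 3.26 CPM elsewhere, and *Wnt8b* was at 6.87 CPM in WT MTAL 11 and at most 2.87 CPM elsewhere. *Wnt11*, a ligand of the ureteric bud tips, was at 1.16, 1.16, 4.12, 1.04 and 1.55 CPM in WT MTAL and at 0.368, 0 and 0.296 CPM in cKO MTAL. Every WT MTAL pool of *Wnt11* lay above every cKO MTAL pool. In a fit that also kept genes with low counts it was lower in cKO MTAL, with a log2 fold change of -3.11 ± 0.87 (adjusted p = 0.0231) and higher in WT MTAL than in WT CTAL by 2.56 ± 0.64 (adjusted p = 0.0317).

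Of the Frizzled receptors, which bind the ligands, 8 were tested and only *Fzd7* was called. *Fzd4*, the receptor that also serves Norrin signalling in vessels, made up 66.8% to 69.9% of the summed Frizzled TPM on average in each group. Its levels were 429 to 526 CPM in WT CTAL, 337 to 497 in cKO CTAL, 444 to 560 in WT MTAL and 367 to 459 in cKO MTAL, and its log2 differences by genotype were -0.12 ± 0.10 in CTAL and -0.20 ± 0.12 in MTAL (adjusted p = 0.703 and 0.342). The groups of *Fzd4* overlapped in every comparison. *Fzd6*, a receptor of the planar polarity pathway, came next per length, with 17.7 ± 2.93, 15.2 ± 2.12, 15.3 ± 3.57 and 16.3 ± 2.97 TPM in WT CTAL, cKO CTAL, WT MTAL and cKO MTAL. *Fzd5*, *Fzd8* and *Fzd1* followed in WT CTAL at 8.40 ± 1.92, 6.79 ± 0.757 and 4.996 ± 1.48 TPM, and neighbours in this order had overlapping ranges. *Fzd2* and *Fzd3* were at 2.67 TPM or less on average in each group. *Fzd9* and *Fzd10* did not pass 0.153 CPM in any pool.

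*Fzd7*, a receptor prominent in stem cells, was at 15.3, 14.4, 13.8, 10.1 and 19.02 CPM in WT CTAL and at 3.75, 7.10, 7.48, 8.92 and 8.37 CPM in WT MTAL. Every MTAL pool lay below every CTAL pool, and *Fzd7* was lower in WT MTAL, with a log2 fold change of -1.02 ± 0.24 (2.03-fold, adjusted p = 0.0128). In cKO the values were 16.6, 17.9, 15.2, 14.4 and 11.8 CPM in CTAL and 6.84, 6.76 and 11.6 CPM in MTAL. These groups did not overlap either, but the difference of -0.81 ± 0.25 was not called (adjusted p = 0.109). Without cKO MTAL 20, the highest of its 3 pools, it was -1.13 with an adjusted p of 0.0283. Between genotypes *Fzd7* differed by 0.06 ± 0.17 in CTAL and 0.24 ± 0.35 in MTAL, neither called.

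The genes called by segment were looked up in the RefSeq promoter table of GRCm38.p6, which holds 250 bases before to 50 bases after the start of a gene and matched 34 of the 52 members. It holds *Fzd7* and *Tcf7l1* among the called members and was searched on both strands for CTTTGAT and CTTTGTT, the letters that TCF/LEF factors favour. Both promoters are shown because these genes differed by segment in opposite directions, and capitals mark a match of the motif. *Fzd7* is at chr1:59481897-59482196 (plus strand) and *Tcf7l1* at chr6:72788996-72789295 (minus strand, written in the direction of the gene):
*Fzd7*: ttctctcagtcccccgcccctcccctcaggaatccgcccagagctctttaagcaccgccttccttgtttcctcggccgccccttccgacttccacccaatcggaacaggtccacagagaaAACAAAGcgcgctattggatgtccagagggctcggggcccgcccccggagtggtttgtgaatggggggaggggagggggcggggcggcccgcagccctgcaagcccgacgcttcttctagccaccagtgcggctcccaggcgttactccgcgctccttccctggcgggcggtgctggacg
*Tcf7l1*: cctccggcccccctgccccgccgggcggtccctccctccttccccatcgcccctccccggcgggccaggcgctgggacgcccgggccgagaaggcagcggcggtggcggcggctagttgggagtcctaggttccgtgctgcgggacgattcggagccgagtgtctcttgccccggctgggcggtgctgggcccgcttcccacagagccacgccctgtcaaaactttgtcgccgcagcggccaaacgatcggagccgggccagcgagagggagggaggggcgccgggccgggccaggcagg
The promoter of *Fzd7* holds 1 match, on the strand opposite to the gene, and that of *Tcf7l1* none. Matches were present in 6 of the 42 promoters of these 34 members (14.3%), those of *Dkk1*, *Fzd7*, *Tcf7l2*, *Wnt3*, *Wnt5b* and *Wnt11*, beside 9.33% of all 32851 promoters in the table. A match describes these letters only. *Wnt10a*, *Wnt7b*, *Sfrp1* and *Lrp6* had no promoter in the table.

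Among the uncalled receptors, *Fzd5* was lower in cKO by a similar amount in both segments: -0.53 ± 0.14 in CTAL (adjusted p = 0.0863) and -0.51 ± 0.22 in MTAL (adjusted p = 0.176). In CTAL its WT values were 42.4, 36.9, 43.7, 35.5 and 62.4 CPM and its cKO values 27.4, 32.2, 31.8, 29.3 and 34.3 CPM, which did not overlap. DESeq2's likelihood ratio test gave *Fzd5* an adjusted p of 0.0158 in CTAL. *Fzd8* differed by -0.33 ± 0.14 in CTAL and 0.30 ± 0.24 in MTAL (adjusted p = 0.351 and 0.490), with an interaction of 0.61 ± 0.28 (adjusted p = 0.313).

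The co-receptors *Lrp5* and *Lrp6* pair with Frizzled to carry the signal to beta-catenin. *Lrp6* was at 399, 434, 495, 453 and 419 CPM in WT MTAL and at 327, 237 and 303 CPM in cKO MTAL. All cKO MTAL pools lay below all WT MTAL pools. The log2 fold change was -0.60 ± 0.13 (1.51-fold, adjusted p = 0.00971), and the call held without any single pool (-0.69 to -0.47). With limma on log2(TPM + 1) it was -0.44 with an adjusted p of 0.154.

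In CTAL *Lrp6* was at 300, 275, 300, 313 and 307 CPM in WT and 231, 275, 300, 258 and 328 CPM in cKO. These groups overlapped and the difference of -0.12 ± 0.09 was not called (adjusted p = 0.677). WT MTAL was higher than WT CTAL by 0.56 ± 0.08 (1.47-fold, adjusted p = 1.93e-04), with no overlap. In cKO the segments differed by 0.09 ± 0.14 (adjusted p = 0.768), and all 3 cKO MTAL pools lay within the range of cKO CTAL. WT MTAL was the group that stood above the other 3, which overlapped among themselves. The interaction of -0.50 ± 0.15 was not called (adjusted p = 0.111), so the genotype effect on *Lrp6* is not shown to differ between the segments. *Lrp6* lies at chr6:134446476-134566965 on the minus strand.

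*Lrp5* differed little in any comparison. It was at 77.8 to 88.3 CPM in WT CTAL, 77.4 to 92.0 in cKO CTAL, 80.5 to 89.7 in WT MTAL and 76.4 to 92.9 in cKO MTAL. Its log2 differences lay between -0.03 ± 0.12 for genotype in MTAL and 0.09 ± 0.08 for segment in WT, and none was called. Per length *Lrp6* stood above *Lrp5* in every group, at 74.0 ± 10.2 against 18.9 ± 0.402 TPM in WT MTAL and at 54.1 ± 6.36 against 21.3 ± 3.31 TPM in cKO MTAL.

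*Lgr4*, the receptor for R-spondins that is common in epithelia, was abundant, at 87.7 ± 9.60 TPM in WT CTAL and 88.7 ± 10.3 TPM in WT MTAL. In MTAL its values were 301, 316, 287, 315 and 384 CPM in WT and 277, 257 and 269 CPM in cKO. The cKO pools all lay below the WT pools, but the difference of -0.25 ± 0.12 was not called (adjusted p = 0.201). Its relatives were rare. *Lgr5*, a stem cell marker and itself a target of the pathway, was at 4.16, 1.095, 1.58, 1.42 and 1.45 CPM in WT MTAL and 0.147, 0.642 and 0.237 CPM in cKO MTAL. These groups did not overlap. In the fit that kept low counts *Lgr5* was lower in cKO MTAL, with a log2 fold change of -2.48 ± 0.76 (adjusted p = 0.0456), on 2 to 13 counts per cKO pool. Its highest value, 4.16 CPM, was in WT MTAL 11, the WT MTAL pool highest in *Aqp2*. *Lgr6* reached 1.102 CPM. Of the R-spondins, the ligands of these receptors, *Rspo1*, *Rspo2* and *Rspo3* were at most at 0.131 CPM and *Rspo4* had 0 counts in all 18 pools.

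*Sfrp1*, a secreted protein that binds Wnt ligands and Frizzled, made up 97.4% ± 1.94 of the summed TPM of the 8 antagonists in WT CTAL, 98.3% ± 1.13 in cKO CTAL, 87.7% ± 4.84 in WT MTAL and 96.2% ± 2.63 in cKO MTAL. It was at 48.7, 62.4, 50.9, 31.5 and 40.9 CPM in WT MTAL and at 166, 146 and 278 CPM in cKO MTAL. Every cKO MTAL pool was far above every WT MTAL pool. *Sfrp1* rose by 2.08 ± 0.21 (4.22-fold, adjusted p = 3.06e-05), and without cKO MTAL 20, its highest pool, by 1.75 (adjusted p = 0.000180).

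In CTAL *Sfrp1* was at 520, 204, 287, 294 and 504 CPM in WT and at 316, 556, 502, 595 and 997 CPM in cKO. The groups overlapped, and the difference of 0.70 ± 0.28 was not called (adjusted p = 0.317). The interaction of 1.36 ± 0.41 was not called either (adjusted p = 0.110), but it was 1.54 with an adjusted p of 0.0428 without cKO MTAL 18. *Sfrp1* was lower in MTAL than in CTAL, with a log2 fold change of -2.95 ± 0.24 in WT (7.72-fold, adjusted p = 1.17e-06) and of -1.55 ± 0.33 in cKO (2.93-fold, adjusted p = 0.0383). The segments did not overlap in either genotype. The WT call held under all alternatives, whereas the cKO call was lost without cKO CTAL 4, 7 or 9 or cKO MTAL 16, with adjusted p between 0.0587 and 0.110. *Sfrp1* lies at chr8:23411502-23449632 on the plus strand and overlaps no other annotated gene.

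The remaining antagonists were low. *Dkk2*, which blocks *Lrp5* and *Lrp6*, was between 0.668 and 7.44 CPM, was tested in the comparisons that include cKO CTAL, and was not called. *Dkk3* reached 4.85 CPM in cKO CTAL 2, the pool high in *Slc12a3*, and 2.84 CPM elsewhere. *Dkk1*, *Sfrp2* and *Sfrp5* stayed below 1 CPM and *Dkk4* had a single count. *Sfrp4* was at 1.48 CPM in cKO MTAL 18, on 30 counts, and at most 0.0592 CPM elsewhere, so a call for it in the fit that kept low counts rests on that pool.

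*Axin1*, the scaffold of the destruction complex, was at 50.2 to 65.4, 49.7 to 61.8, 51.0 to 63.1 and 49.0 to 62.0 CPM in WT CTAL, cKO CTAL, WT MTAL and cKO MTAL. Its log2 differences lay between -0.06 and 0.03 across the comparisons, and the groups overlapped throughout. *Axin2*, which is both a scaffold and a widely used target of beta-catenin, was at 0.534 to 1.79, 0.363 to 1.15, 0.662 to 3.47 and 0.515 to 1.38 CPM in the same order. It passed the filter in no comparison, and in the fit that kept low counts its difference was -0.74 ± 0.71 in MTAL and -0.47 ± 0.48 in CTAL (adjusted p = 0.617 and 0.721). No change of *Axin2* was detected.

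Of the TCF/LEF factors, through which beta-catenin acts on its target genes, *Tcf7l2* and *Tcf7l1* were tested. *Tcf7l1*, which acts mostly as a repressor, was at 16.3, 30.4, 17.2, 18.9 and 22.3 CPM in WT CTAL and 41.5, 44.3, 45.5, 34.1 and 38.3 CPM in WT MTAL. In cKO it was at 14.3, 16.7, 22.6, 12.7 and 16.4 CPM in CTAL and 37.4, 34.5 and 34.2 CPM in MTAL. In both genotypes every MTAL pool lay above every CTAL pool. It was higher in MTAL by 0.96 ± 0.16 in WT (adjusted p = 0.00112) and by 1.14 ± 0.18 in cKO (adjusted p = 0.00721). The difference by genotype was -0.35 ± 0.19 in CTAL and -0.20 ± 0.15 in MTAL, neither called. *Tcf7l1* (chr6:72626378-72789254, minus strand) is overlapped by 3 predicted genes on its own strand and 3 on the other, so its counts may be shared with them. Its promoter, without a match of the motif, is printed beside that of *Fzd7*.

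*Tcf7l2* was at 30.2 to 43.0, 26.5 to 33.3, 33.2 to 43.1 and 25.1 to 45.7 CPM in WT CTAL, cKO CTAL, WT MTAL and cKO MTAL and was not called. Per length it stood above *Tcf7l1* in CTAL, at 14.8 ± 2.03 against 10.1 ± 2.42 TPM in WT, and in WT MTAL the order was reversed, at 17.6 ± 2.76 against 19.9 ± 3.06 TPM, a gap within their spread. *Lef1* and *Tcf7* did not pass 3.52 CPM and were tested in no comparison. Of the 10 untested members that reached 3 CPM in some pool, 5 had their highest value in WT MTAL 11, namely *Axin2*, *Lef1*, *Lgr5*, *Wnt4* and *Wnt8b*. That pool was also the highest of WT MTAL in *Aqp2*, at 147 CPM.

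**Figure D4:**
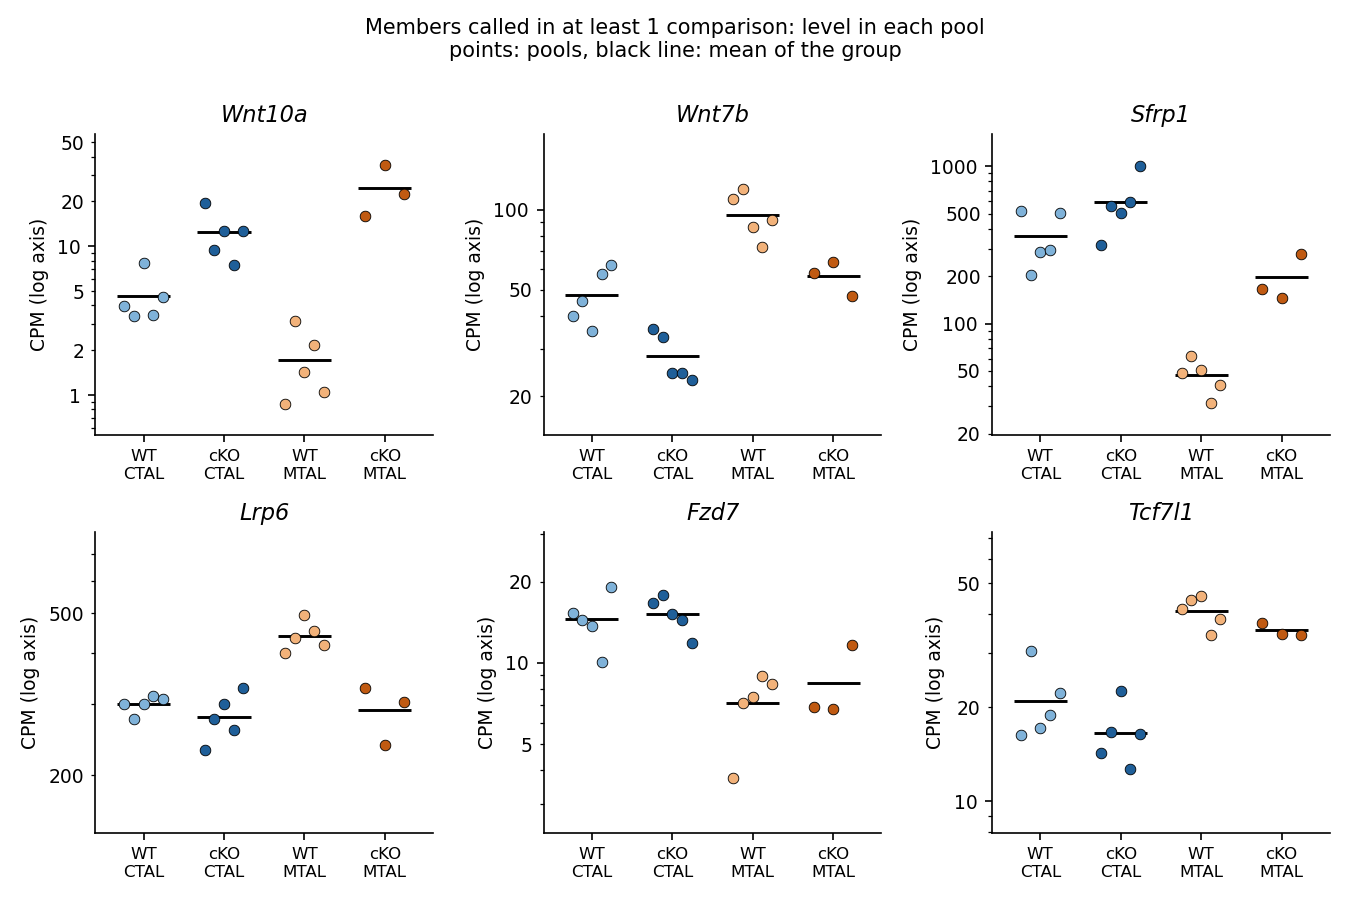
CPM on a log axis in each of the 18 pools for the 6 members called in at least 1 comparison, with the mean of each group as a black line. *Wnt10a* and *Sfrp1* are lowest in WT MTAL and clear of it in cKO MTAL, *Lrp6* is highest in WT MTAL, and *Fzd7* and *Tcf7l1* split by segment in both genotypes.

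Beyond the members, 92 other genes of the pathway were followed in 7 lists. Their calls are those of the main fit and were not followed through the alternatives. In cKO MTAL against WT MTAL, 66 were tested, 8 rose and 1 fell, beside 4.44% of all genes higher and 2.57% lower, and the median log2 fold change was 0.14, beside 0.00 over all genes. *Wls*, which carries Wnt proteins to the cell surface, was at 159, 146, 144, 174 and 173 CPM in WT and 200, 262 and 250 CPM in cKO and rose by 0.58 ± 0.12 (adjusted p = 0.00879). Of 7 tested secreted or membrane inhibitors, *Frzb*, which passed the filter through the cKO MTAL pools, a relative of the Sfrp family, rose by 2.54 ± 0.43 (adjusted p = 0.00208), with WT pools at 0.751 to 2.04 CPM and cKO pools at 5.04 to 10.7 CPM. *Igfbp4*, an insulin-like growth factor binding protein that can also restrain Wnt signalling, rose by 1.98 ± 0.28 (adjusted p = 4.47e-04), with WT pools at 5.24 to 8.37 CPM and cKO pools at 16.6 to 38.1 CPM. The ranges of WT and cKO did not overlap for any of these 3 genes.

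Of 3 other Wnt receptors tested in MTAL, *Ror2*, the tyrosine kinase receptor for *Wnt5a*, rose by 1.33 ± 0.26 and *Ptk7*, its relative in planar polarity, by 0.75 ± 0.20 (adjusted p = 0.00616 and 0.0351). Of 11 planar polarity genes, *Vangl2* and *Celsr1* rose by 1.81 ± 0.45 and 0.74 ± 0.13 (adjusted p = 0.0235 and 0.00245), where *Vangl2* ran from 6.07 to 20.1 CPM among the 3 cKO pools. *Tle3*, a co-repressor of TCF factors, rose by 0.84 ± 0.15 (adjusted p = 0.00366). Of 20 cytoplasmic components, which include beta-catenin itself (*Ctnnb1*, 627 to 698 CPM in WT and 613 to 765 CPM in cKO), none was called by edgeR's test. Of 11 common target genes only *Bambi* was called. It fell, with a log2 fold change of -1.14 ± 0.32 (adjusted p = 0.0400), from 15.5, 9.29, 12.8, 20.2 and 15.9 CPM in WT to 8.90, 6.22 and 4.85 CPM in cKO.

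In cKO CTAL against WT CTAL, 63 of the 92 genes were tested, 0 rose and 3 fell, beside 0.658% of all genes higher and 0.564% lower. All 3 came from the list of common targets, of which 9 were tested. *Myc* was at 14.7, 29.7, 14.9, 17.3 and 19.5 CPM in WT and 11.6, 9.68, 7.26, 7.81 and 6.07 CPM in cKO. The groups did not overlap, and the log2 fold change was -1.17 ± 0.22 (adjusted p = 0.0152). *Ccnd1*, which encodes cyclin D1, fell (log2 fold change -0.66 ± 0.15), as did *Jun* (-0.85 ± 0.18, adjusted p = 0.0397 and 0.0334), with overlapping ranges. These genes are also targets of growth factor and stress signalling. Alternatives that ended both member calls in this comparison, such as counting WT CTAL 1 as cKO, were not followed for these 3 genes. In MTAL, *Myc* was at 19.1 to 48.9 CPM in WT and 12.3 to 26.9 CPM in cKO and was not called. The Wnt targets *Sp5* and *Notum* stayed at or under 1.15 and 1.90 CPM in every pool.

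Between the segments of WT mice, 62 of the 92 were tested and 6 were called, beside 2.76% of all genes higher and 4.1% lower. *Wls* (-0.74 ± 0.09), *Igfbp4* (-2.26 ± 0.19), *Ror2* (-0.87 ± 0.18), *Celsr1* (-0.62 ± 0.11) and *Znrf3* (-0.35 ± 0.09), a ligase that removes Frizzled from the surface, were lower in MTAL, with adjusted p from 1.86e-06 to 0.0197. *Myc* was higher in MTAL by 0.996 ± 0.24 (adjusted p = 0.0175). *Wls*, *Igfbp4*, *Ror2* and *Celsr1* were thus lower in WT MTAL than in WT CTAL and higher in cKO MTAL than in WT MTAL, and both comparisons share the WT MTAL pools. In cKO, 67 were tested and 3 were higher in MTAL and 0 lower, beside 1.12% and 0.631% of all genes, namely *Dvl1* (0.45 ± 0.10), *Myc* (1.25 ± 0.27) and *Jun* (1.34 ± 0.13), with adjusted p from 0.000323 to 0.0428. In the interaction test edgeR called 0 of 68 genes, beside 0.286% of all 12586 genes.

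**Figure D5:**
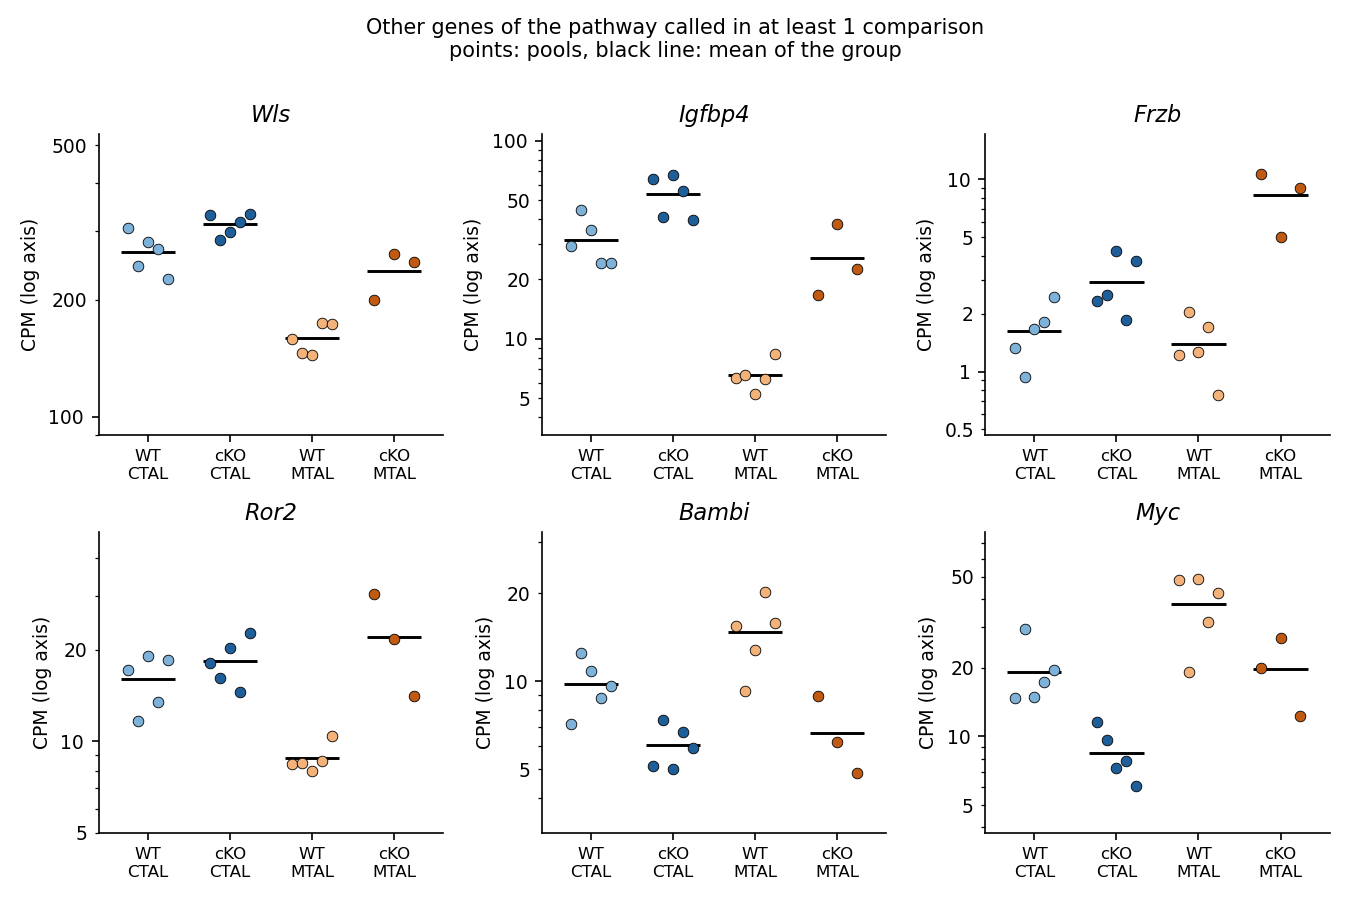
CPM on a log axis in each of the 18 pools for 6 other genes of the pathway, with the mean of each group as a black line. *Wls*, *Igfbp4* and *Ror2* are lowest in WT MTAL, *Frzb* is highest in cKO MTAL, and *Myc* and *Bambi* have lower means in cKO than in WT of the same segment.

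Markers of other cell types moved in the same comparisons. In cKO MTAL against WT MTAL, 4 of 8 endothelial markers were lower, their sum being 289 to 448 CPM in WT and 167 to 274 CPM in cKO, as were 2 of 4 thin limb markers (110 to 202 and 78.0 to 110 CPM). Across all genes there, 4.44% were called higher and 2.57% lower. Of 5 markers of tubular injury 2 of 4 tested were higher (1134 to 1387 and 2179 to 8310 CPM, the last in cKO MTAL 18). Single markers were also higher for smooth muscle (*Acta2*, 1 of 2 tested), intercalated cells (*Atp6v0d2*, 1 of 5) and the proximal tubule (*Slc34a1*, 1 of 3). The other tested markers of these lists were not called. Of 7 principal cell markers 0 was called (77.7 to 358 and 123 to 1054 CPM, the last in cKO MTAL 20). Among the defining markers, *Slc5a12* of the proximal tubule was at most 0.0578 CPM in WT MTAL and *Pvalb* of the distal convoluted tubule was at 0 in all 3 cKO MTAL pools, and no other marker was under 0.1 CPM in every pool of a group. In cKO CTAL against WT CTAL, outside the TAL list only 1 of 6 intercalated cell markers was called, *Atp6v0d2*, which was higher, beside 0.658% of all genes. In WT MTAL against WT CTAL, *Aqp1* of the thin limb and *Csf1r* of immune cells were higher and *Scnn1b* of principal cells, *Cd74* of immune cells and the injury marker *Spp1* were lower. Of all genes there, 2.76% were called higher and 4.1% lower. Between the cKO segments, 3 of 3 tested thin limb markers were higher in MTAL (*Aqp1*, *Slc14a2* and *Bst1*, summed list 15.7 to 34.3 CPM in CTAL and 78.0 to 110 CPM in MTAL) and *Cd74* was lower. Of all genes in that comparison, 1.12% were called higher and 0.631% lower. The part of these markers in the member results was not tested.

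Within the cKO groups, the pools highest in the injury markers *Lcn2* and *Spp1* were also the highest in *Wnt10a*. They were cKO MTAL 18, with *Lcn2* at 282, *Spp1* at 7835 and *Wnt10a* at 35.3 CPM, and cKO CTAL 2, with *Lcn2* at 84.6, *Spp1* at 4347 and *Wnt10a* at 19.6 CPM. Pools cKO CTAL 4 and 7 had *Lcn2* at 7.51 and 6.70 CPM, within the 4.90 to 8.18 CPM of WT CTAL. Their *Spp1*, at 1671 and 1897 CPM, lay above WT CTAL. Their *Wnt10a*, at 9.50 and 12.7 CPM, also lay above every WT CTAL pool. A link between the injury markers and *Wnt10a* was not tested. Pool cKO MTAL 18 also had the highest *Wnt5a* and nearly all counts of *Sfrp4*. Without it the log2 fold changes in MTAL were 3.44 for *Wnt10a*, 2.25 for *Sfrp1*, -0.86 for *Wnt7b* and -0.47 for *Lrp6*, with adjusted p of 0.000429, 3.01e-05, 0.0140 and 0.0326. Without cKO MTAL 20 they were 3.85, 1.75, -0.65 and -0.63 in the same order, with adjusted p of 0.000241, 0.000180, 0.0634 and 0.0295, so that the call of *Wnt7b* was lost. Without cKO CTAL 2 the log2 fold change of *Wnt10a* in CTAL was 1.16 (adjusted p = 0.0674).

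*Xist* was also unevenly spread, being present in 4 of 5 WT MTAL pools and in no cKO MTAL pool. With a term for the *Xist* pools in a fit of all 18, *Wnt10a* was higher in cKO MTAL than in WT MTAL by 3.68 (adjusted p = 1.68e-05), *Sfrp1* was higher by 1.73 (adjusted p = 0.00349) and *Lrp6* differed by -0.69 (adjusted p = 0.00301). *Wnt7b* differed by -0.67 and was not called (adjusted p = 0.0594). WT MTAL 13, the WT MTAL pool without *Xist*, was at 3.14 CPM for *Wnt10a*, 62.4 for *Sfrp1*, 434 for *Lrp6* and 120 for *Wnt7b*, each on the WT side of all 3 cKO MTAL pools. Among the WT MTAL pools it was the highest for *Wnt10a* and *Sfrp1*, so the nearest to cKO. The others were at 0.866 to 2.17 and at 31.5 to 50.9 CPM. For *Wnt7b* it was also the highest, so the farthest from cKO. A single pool cannot separate *Xist* from genotype. In CTAL the call of *Wnt10a* was lost with this term (1.39, adjusted p = 0.0546) and that of *Wnt7b* was kept (-0.75, adjusted p = 0.0366).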

How the data were processed

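The authors prepared strand-specific libraries from RNA of the 18 pools and quantified the reads per gene. The sources name DRAGEN for mapping to mm10, with Trimmomatic, FastQC and Picard in the submitters' processing notes and fastp in the study's methods. Whether counting used strand, and how reads shared by several genes were treated, is not given in the sources used here. The authors deposited estimated counts per gene, not normalized, and TPM values, corrected for transcript length. All columns were matched to pools, and each pool is a distinct animal. The lowest chi-square per gene among 33 pairs of replicates was 14.8, so no pair was a duplicate.

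Estimated counts were rounded and then tested with edgeR 4.0.16 in R 4.3.3 (TMM factors 0.936 to 1.08, glmQLFit and glmQLFTest, Benjamini-Hochberg adjustment over all genes tested), on the pools of the groups compared. The filter kept a gene that reached 3 CPM in 5 or more pools (3 or more where cKO MTAL entered), and for the interaction, fitted on all 18 pools, in 3 or more pools. A gene was called at an adjusted p under 0.05. Levels are CPM on TMM-normalized library sizes, with mean ± SD, and deposited TPM. The total counts set the precision: 3 counts correspond to 0.0454 to 0.282 CPM. The scripts were tested on simulated data.

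Alternatives were genes with low counts kept, DESeq2 size factors, the likelihood ratio test of DESeq2 1.42.0, limma 3.58.1 on log2(TPM + 1) and log2(TPM + 0.1), one fit of all pools, a term for *Xist* above 1 CPM, pool WT CTAL 1 counted as cKO, and leaving out each pool. Leaving out cKO MTAL 20 and cKO CTAL 2 together was added after seeing the data. Named with values were the members tested in a comparison, the called genes of the pathway lists, and *Cldn10*; the other members are given by range, and a few of them, with *Ctnnb1*, *Sp5* and *Notum*, were singled out after their values were seen. The members and lists were chosen with earlier results of these data known. Coordinates are mm10, from the GENCODE annotation, and promoters from RefSeq on GRCm38.p6, whose gene starts can differ from it.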

Additional observations from a re-analysis of the deposited data

Results flagged for a closer look

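Single pools lay far from the rest of their group in 4 of 60 groups of 5 pools, where chance gives about 1 in 20. *Fzd2* was at 14.5 CPM in WT MTAL 11, the WT MTAL pool highest in *Aqp2*, and at 3.21 to 4.70 CPM in the other WT MTAL pools. *Lrp5* was at 88.3 CPM in WT CTAL 3 and at 77.8 to 78.3 CPM in the other WT CTAL pools. *Tcf7l2* was at 43.0 CPM in WT CTAL 8 and at 30.2 to 33.8 CPM in the others. *Wnt10a* was at 7.76 CPM in WT CTAL 8 and at 3.39 to 4.57 CPM in the others. Leaving out WT CTAL 8 ended the call of *Wnt10a* between the WT segments (adjusted p = 0.0896).

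The effect of genotype on *Wnt10a* differed between the segments by the interaction test, by 2.37 on the log2 scale (adjusted p = 0.0450, edgeR's quasi-likelihood test over 12586 genes). It was higher in cKO than in every WT pool in 3 of 3 MTAL pools and in 4 of 5 CTAL pools.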

How the results depend on the processing

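Counts of called members moved as follows. In cKO MTAL against WT MTAL, 4 members became 7 with low counts kept (*Lgr5*, *Wnt11* and *Sfrp4* added) and 2 with limma on TPM at either pseudocount (*Wnt7b* and *Lrp6* lost). In cKO CTAL against WT CTAL, 2 became 1 with limma at either pseudocount (*Wnt7b* lost), 1 with the *Xist* term (*Wnt10a* lost) and 0 with WT CTAL 1 counted as cKO. In cKO MTAL against cKO CTAL, 3 became 6 with DESeq2's likelihood ratio test (*Fzd7*, *Fzd8* and *Wnt10a* added) and 0 with limma at either pseudocount. In the interaction, 1 became 2 with DESeq2's test (*Lrp6* added) and 0 with limma, the *Xist* term or WT CTAL 1 counted as cKO. In WT MTAL against WT CTAL the count stayed at 6 in every alternative with all pools, with *Wnt11* in place of *Wnt10a* where low counts were kept. Leaving out a pool gave 3 to 4, 0 to 2, 5 to 6, 2 to 4 and 0 to 2 members for genotype in MTAL, genotype in CTAL, segment in WT, segment in cKO and the interaction. Leaving out cKO MTAL 20 and cKO CTAL 2 together, chosen after seeing the data, gave 4 members for segment in cKO, with *Fzd7* added, and 1 for the interaction. Of 278 alternative values of the 16 called log2 fold changes, 224 kept their call, 54 lost it and 0 changed direction. *Wnt10a* and *Sfrp1* in MTAL kept their calls under all 15 alternatives, as did *Sfrp1*, *Tcf7l1*, *Lrp6*, *Fzd7* and *Wnt7b* between the WT segments under 18.

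The cause of these changes was not tested. Calls that leave out a cKO MTAL pool rest on 2 pools of that group. Members that did not pass the filter of 3 CPM were tested only where low counts were kept. No paired analysis was possible because each pool is a distinct animal and the pool numbers are not shared between groups.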
